A study of Mus musculus with 6 samples.

Results

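The genes described are 10 receptor tyrosine kinases, taken by name from a table of read counts for 54532 genes: Met, Flt1, Fgfr1, Fgfr3, Kit, Axl, Mertk, Tyro3, Insr and Igf1r. Met, Fgfr3 and Flt1 were picked because they were lower in the cells given DB2313. Axl, Mertk, Tyro3, Kit, Insr and Igf1r were added as a contrast to them, and for Fgfr1 no separate reason was stated. The difference between the groups thus chose the list. For the 10 genes it is therefore given as a description, without p-values, and the number that met the threshold used for all genes is read as no evidence, since the same difference chose them. The counts came from RNA-seq of cultured mouse dendritic cells, 3 control libraries without the compound and 3 libraries with DB2313, a small molecule used by the study as an inhibitor of the transcription factor Spi1 (PU.1). Both groups were grown in the same serum-containing medium with antibiotics. The labels name dendritic cells, whereas the study's methods speak of RNA-seq on macrophages and CD8 T cells. Of these dendritic cells the labels give no strain, sex, age, dose or duration of treatment, and whether the dose that the methods state for macrophages was used here is not known. The labels also do not say whether the 3 libraries of a group came from separate animals or cultures, so the spread between them may be technical. The count columns carry the names BMDC and SPI1 with a number, and were read as the control and the DB2313 libraries. Every direction below rests on that reading.

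Receptor tyrosine kinases are surface proteins that bind a growth factor outside the cell, pair up and phosphorylate tyrosines on each other. Adaptors such as Grb2 and Shc1 dock on these tyrosines and pass the signal to the RAS-ERK and PI3K-AKT routes, and phosphatases and ubiquitin ligases end it. In myeloid cells the family is best known for Csf1r and Flt3, which drive the growth of macrophages and dendritic cells, and for the TAM receptors Tyro3, Axl and Mertk, which recognise dying cells through the bridging proteins Gas6 and Pros1 and dampen inflammatory responses.

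The libraries held 16146743 to 19764677 counts. Within groups, DB2313 replicates 1 and 3 lay farthest apart, with a chi-square statistic of 17.7 per degree of freedom against 4.77 to 5.28 between control libraries. Long genes (at least 4000 bp) stood lower than short genes (under 2000 bp) by 0.25 and 0.14 on the log2 scale in DB2313 replicates 1 and 2 relative to the control mean, whereas in replicate 3 they stood 0.038 higher. This matters here because the receptors are long, from 4336 bp for Mertk to 16791 bp for Igf1r, and each difference is given with and without an offset for gene length. Markers of several cell types were set beside the dendritic cell label. Of 9 dendritic cell markers 8 exceeded 10 CPM (counts scaled to a common library size), and of 8 macrophage markers all 8 did. So did all 8 neutrophil markers and 6 of 7 T cell markers, and this level therefore cannot check the label. The summed level of the dendritic cell markers was 9819 to 10057 CPM in control and 8240 to 9763 CPM with DB2313. Within that sum Cd74 alone measured 6548 ± 87.5 and 5990 ± 607 CPM (SD, n = 3). Macrophage markers summed to 1546 to 1638 CPM and 1197 to 1464 CPM. At an adjusted p under 0.05 in edgeR, the dendritic cell markers Itgax and Batf3 fell, and among the macrophage markers Csf1r, Cd14 and Mrc1 fell and Fcgr1 rose, and the part of these cells in the results was not tested. In bulk RNA, fewer cells of a type and less RNA per cell cannot be told apart.

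Spi1 binds DNA at sites built on the letters GGAA, most often as GAGGAA, and the promoters of the receptors were searched for both on either strand. Each GAGGAA also counts as a GGAA. RefSeq windows (GRCm38.p6, from 250 bases before to 50 bases after a gene start) existed for 8 of the 10 genes, and not for Fgfr1 and Insr. The windows of the 3 genes that led to the choice of the list are printed here because those genes were lower together, and those of Tyro3, which lay higher with DB2313, and of Kit, which hardly differed, stand beside them for comparison. Each reads 5′ to 3′ on the strand of its gene, with GGAA and GAGGAA, or their reverse complements, in capitals.
Met (chr6:17463707-17464006, plus strand): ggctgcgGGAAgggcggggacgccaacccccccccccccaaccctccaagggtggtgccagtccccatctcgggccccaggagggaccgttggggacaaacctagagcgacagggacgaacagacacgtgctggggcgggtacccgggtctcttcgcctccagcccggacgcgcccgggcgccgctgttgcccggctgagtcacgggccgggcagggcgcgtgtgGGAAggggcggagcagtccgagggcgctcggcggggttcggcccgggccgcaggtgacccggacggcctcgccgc
Flt1 (chr5:147725962-147726261, minus strand): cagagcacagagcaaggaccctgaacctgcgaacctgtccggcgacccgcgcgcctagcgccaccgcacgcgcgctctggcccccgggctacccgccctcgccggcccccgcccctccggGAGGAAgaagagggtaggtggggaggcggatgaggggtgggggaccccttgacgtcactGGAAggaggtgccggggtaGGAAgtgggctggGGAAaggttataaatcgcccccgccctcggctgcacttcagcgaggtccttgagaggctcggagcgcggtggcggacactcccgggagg
Fgfr3, upstream start (chr5:33721474-33721773, plus strand): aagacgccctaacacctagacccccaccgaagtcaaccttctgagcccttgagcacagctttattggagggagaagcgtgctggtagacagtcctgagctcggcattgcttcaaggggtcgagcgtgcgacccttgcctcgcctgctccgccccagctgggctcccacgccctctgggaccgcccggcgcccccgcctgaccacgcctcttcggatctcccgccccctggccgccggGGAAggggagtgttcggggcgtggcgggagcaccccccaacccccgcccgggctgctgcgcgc
Fgfr3, downstream start (chr5:33722056-33722355, plus strand): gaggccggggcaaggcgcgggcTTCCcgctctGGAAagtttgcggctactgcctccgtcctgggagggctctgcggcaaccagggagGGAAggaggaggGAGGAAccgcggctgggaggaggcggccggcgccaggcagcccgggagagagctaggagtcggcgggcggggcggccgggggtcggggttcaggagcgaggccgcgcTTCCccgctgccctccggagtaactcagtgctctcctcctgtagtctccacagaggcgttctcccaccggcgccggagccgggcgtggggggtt
Tyro3 (chr2:119799264-119799563, plus strand): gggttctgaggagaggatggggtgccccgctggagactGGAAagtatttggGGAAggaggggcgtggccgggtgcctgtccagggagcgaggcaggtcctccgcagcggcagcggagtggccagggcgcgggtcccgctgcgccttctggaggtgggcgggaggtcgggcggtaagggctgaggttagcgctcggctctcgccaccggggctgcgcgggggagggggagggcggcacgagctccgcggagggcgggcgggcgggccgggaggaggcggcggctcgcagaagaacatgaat
Kit (chr5:75574737-75575036, plus strand): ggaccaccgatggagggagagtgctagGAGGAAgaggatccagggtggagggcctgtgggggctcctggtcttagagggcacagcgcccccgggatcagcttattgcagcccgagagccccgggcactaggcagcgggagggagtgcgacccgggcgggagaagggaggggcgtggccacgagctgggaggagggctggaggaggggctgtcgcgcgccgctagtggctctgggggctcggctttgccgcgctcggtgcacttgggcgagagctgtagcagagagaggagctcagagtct

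GAGGAA was present in the windows of Flt1, Fgfr3 (at the downstream start), Kit and Axl, in 5 of 10 windows, as Kit held it in both of its overlapping windows, and 28.3% of all 32851 promoter windows held it. The Met window held GGAA at 2 places and no GAGGAA, and GGAA alone was in 96.0% of all windows. Kit, which hardly differed between the groups, held GAGGAA and Met, which was lower with DB2313, did not. The letters thus did not sort the receptors that had a window by their difference, and nothing follows from them about binding. Fgfr1, which also lay lower with DB2313, could not be searched.

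Among the 10 receptors, 4 met the rule for a call, an adjusted p under 0.05 in edgeR's quasi-likelihood test over 14174 genes, and all 4 were lower with DB2313. Over all genes tested the rule was met by 10.6% in either direction, 5.94% lower and 4.66% higher. Since the list was chosen on this comparison, nothing is read from that count. It also varied with the fit. Flt1 was not among the genes meeting the rule without control replicate 2, and Fgfr1 was not with DESeq2, with library totals, or when any single library except DB2313 replicate 3 was left out. Without DB2313 replicate 3 Insr and Mertk met it too, as did Insr with no filter on low counts and, in the higher direction, Igf1r with the length offset. The groups did not overlap for 5 of the 10 receptors, 4 lower and 1 higher, and for 27.4% of all genes. All 10 receptors passed the filter on low counts. Their median log2 fold change (DB2313 against control) was -0.32, and that of all genes tested was 8.3e-04. The plot of CPM by library shows the values described next.

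**Figure D1:**
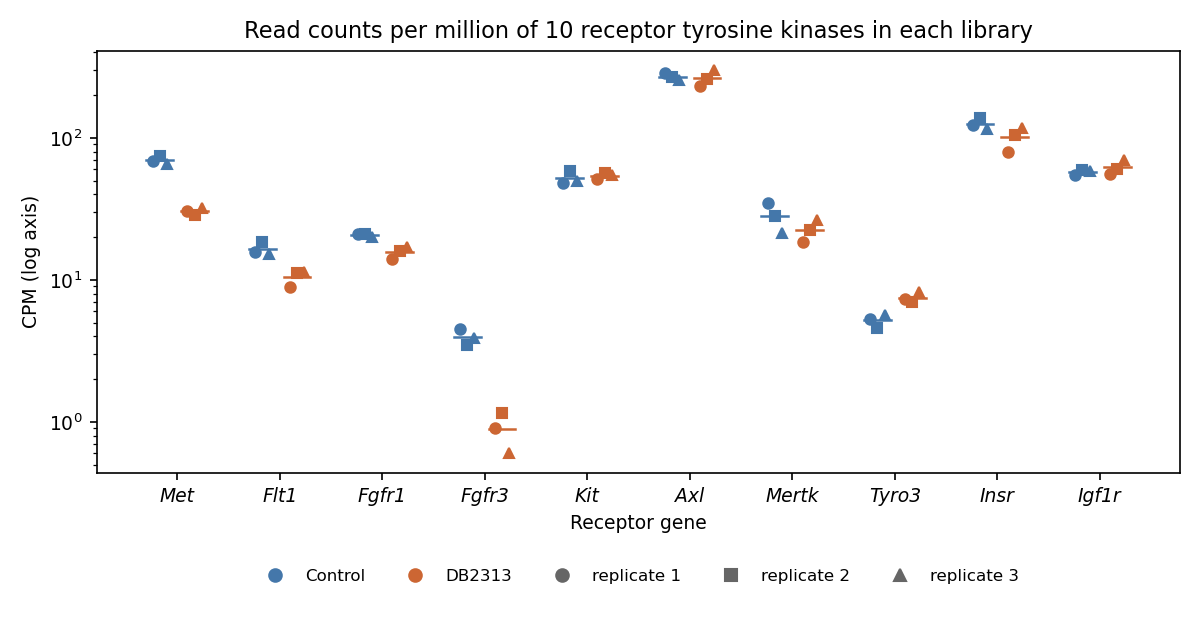
CPM of the 10 receptors in each library on a log axis, control in blue and DB2313 in orange, with a marker shape per replicate and a line at the mean of 3 libraries. Met, Flt1, Fgfr1 and Fgfr3 lie lower in all DB2313 libraries, Tyro3 lies higher in all of them, and the groups overlap for the other 5 genes.

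Met encodes the receptor for hepatocyte growth factor, a signal for cell growth, motility and survival. The gene lies on chromosome 6 (GRCm38, 17463800 to 17573980, plus strand). It measured 69.3, 74.7 and 65.8 CPM in control replicates 1 to 3 and 30.8, 28.6 and 31.9 CPM in DB2313 replicates 1 to 3. All treated libraries stood at less than the lowest control library by a wide margin, and the spread within each group was small, with the highest DB2313 library 1.11 times the lowest. Its log2 fold change was -1.20 ± 0.09 (SE), so that 43.5% of the control level was left. With the length offset it was -1.16 ± 0.08, and over all 15 alternative settings it stayed between -1.24 and -1.15.

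Fgfr3 and Fgfr1 encode receptors for fibroblast growth factors, which act together with heparan sulfate on the cell surface. Fgfr3 (chromosome 5, 33721674 to 33737068, plus strand) had the lowest level of the 10 genes and the largest fitted difference. Its counts were 74, 56 and 62 in the control libraries and 15, 23 and 10 in the DB2313 libraries, or 4.54, 3.51 and 3.88 CPM against 0.91, 1.15 and 0.60 CPM. The groups were far apart, but the highest DB2313 library was 1.92 times the lowest, and counts this low leave a wide error. A log2 fold change of -2.14 ± 0.33 (SE) was fitted, with the extremes -2.39 (DB2313 replicate 2 left out) and -1.93 (DB2313 replicate 3 left out). On the opposite strand G630022F23Rik, annotated as still to be experimentally tested, covers 998 of its 7158 exon bases and was listed at 0 counts in every library. Reads of the pair cannot be told apart if the counting ignored strand, which the sources used here do not state.

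Fgfr1 (chromosome 8, 25513654 to 25575718, plus strand) measured 20.9, 21.0 and 20.1 CPM in control and 14.0, 15.9 and 16.98 CPM with DB2313. The control libraries were nearly equal and all DB2313 libraries lay lower. This gave a log2 fold change of -0.40 ± 0.12 (SE), and -0.34 ± 0.11 with the length offset. Leaving out single libraries gave values from -0.46 (DB2313 replicate 3) to -0.33 (DB2313 replicate 1). The ratio of Fgfr1 to Fgfr3 levels per kilobase lay between 3.34 and 4.34 without the compound and between 10.0 and 20.5 with it, so that Fgfr1 outweighed Fgfr3 more strongly in every DB2313 library.

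Flt1 encodes VEGF receptor 1, which binds Vegfa, Vegfb and Pgf and is made by endothelial cells and by monocytes. The gene lies on chromosome 5 (147561604 to 147726011, minus strand). It measured 15.8, 18.5 and 15.3 CPM in control and 8.97, 11.2 and 11.5 CPM with DB2313. All treated libraries were lower than all control libraries, with replicate 1 the lowest. The fitted log2 fold change was -0.65 ± 0.14 (SE), and -0.55 ± 0.13 with the length offset. Without control replicate 2 it was -0.55. In control the endothelial markers Cldn5, Emcn, Cdh5, Tek and Tie1 measured 0, 0.0209, 0.0835, 0.146 and 0.621 CPM. Kdr, Robo4 and Egfl7 measured 1.25, 1.29 and 1.31 CPM, and Vwf and Pecam1 46.8 and 48.8 CPM. Of these 10 endothelial markers, Pecam1 and Vwf exceeded 10 CPM, and no marker met the call rule. The summed level of the list was 95.6 to 103.5 CPM in control and 97.1 to 110.1 CPM with DB2313. The part of endothelial cells in the Flt1 level was not tested.

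Axl, Mertk and Tyro3 make up the TAM receptors. Axl (chromosome 7, 25757273 to 25788705, minus strand), the most abundant of the 10 genes with and without division by length, measured 285, 269 and 256 CPM in control and 231, 258 and 301 CPM with DB2313. The DB2313 libraries spanned the whole control range and went beyond it at both ends. The log2 fold change was -0.034 ± 0.09 (SE), and its sign turned in 2 of the 15 alternatives, to 0.0082 without control replicate 1 and to 0.052 without DB2313 replicate 1.

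Mertk (chromosome 2, 128698956 to 128802894, plus strand), a receptor for the uptake of dying cells, measured 34.7, 28.2 and 21.5 CPM in control and 18.4, 22.5 and 26.5 CPM with DB2313. The groups overlapped, and the control libraries themselves differed by 1.62 times. Its log2 fold change of -0.33 ± 0.16 (SE) became -0.49 when control replicate 3 was left out and -0.15 when control replicate 1 was.

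Tyro3 (chromosome 2, 119797733 to 119818104, plus strand) was the only receptor of the 10 with all DB2313 libraries higher, at 7.34, 7.01 and 8.16 CPM against 5.34, 4.57 and 5.64 CPM in control. Over all genes tested, the groups did not overlap for 12.9% in this direction and for 14.5% in the other. Its log2 fold change was 0.53 ± 0.18 (SE) on 73 to 140 counts per library. Per kilobase, Axl made up 86.5% to 89.7% of the summed TAM level in control and 89.0% to 89.5% with DB2313. Tyro3 made up 1.22% to 1.60% and 1.96% to 2.30%. Among these receptors Axl thus predominated in both groups.

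Kit encodes the receptor for stem cell factor, which is found on haematopoietic progenitors and mast cells. The gene (chromosome 5, 75574916 to 75656722, plus strand) measured 48.3, 58.2 and 50.04 CPM in control and 51.2, 56.7 and 54.8 CPM with DB2313. The groups overlapped throughout, with a log2 fold change of 0.057 ± 0.09 (SE). Its ligand Kitl, looked at after its values were seen, was low, at 3 to 47 counts per library. Of 12 mast cell and basophil markers 9 exceeded 10 CPM, and their summed level was 2538 to 2738 CPM in control and 2589 to 3095 CPM with DB2313. Among them the basophil proteases Prss34 and Mcpt8 measured 1212 ± 64.5 and 618 ± 26.2 CPM in control (SD, n = 3), and the mast cell proteases Tpsb2 and Mcpt4 0.0823 and 0.0209 CPM. Cpa3, the mast cell carboxypeptidase, measured 323 ± 11.2 CPM in control and 346 ± 31.6 CPM with DB2313. Within the list, Fcer1a (log2 fold change 0.34) and Hdc (0.28) rose, with an edgeR adjusted p of 0.0244 and 0.0293. The other tested markers of the list did not pass. Their log2 fold changes were -0.17 for Ms4a2, -0.062 for Hpgds, 0.068 for Il1rl1 and 0.081 for Gata2. Those of Mcpt8, Cpa3, Prss34 and Cma1 were 0.086, 0.099, 0.15 and 0.27. Of 8 progenitor markers 4 exceeded 10 CPM, with a summed level of 368 to 422 CPM in control and 482 to 508 CPM with DB2313, and Ly6a and Tal1 among them rose. The part of these cells in the Kit level was not tested.

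Insr and Igf1r encode the receptors for insulin and insulin-like growth factor 1, which share a structure and much of their signalling through the Irs adaptors. Insr (chromosome 8, 3122061 to 3279617, minus strand) measured 122, 138 and 116 CPM in control and 80.2, 105 and 118 CPM with DB2313. DB2313 replicate 3 lay within the control range and replicate 1 far under it. Its log2 fold change was -0.31 ± 0.11 (SE), and -0.22 ± 0.08 with the length offset. Leaving out DB2313 replicate 3 gave -0.44 and leaving out DB2313 replicate 1 gave -0.17.

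Igf1r (chromosome 7, 67952827 to 68233668, plus strand) measured 54.8, 59.3 and 58.6 CPM in control and 56.0, 60.7 and 70.1 CPM with DB2313. Its log2 fold change was 0.11 ± 0.09 (SE), and 0.23 ± 0.07 with the length offset. The levels of Insr and Igf1r per kilobase stood in a ratio of 2.42 to 2.83 in control and of 1.75 to 2.10 with DB2313. Both genes are long, at 13746 bp for Insr and 16791 bp for Igf1r.

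**Figure D2:**
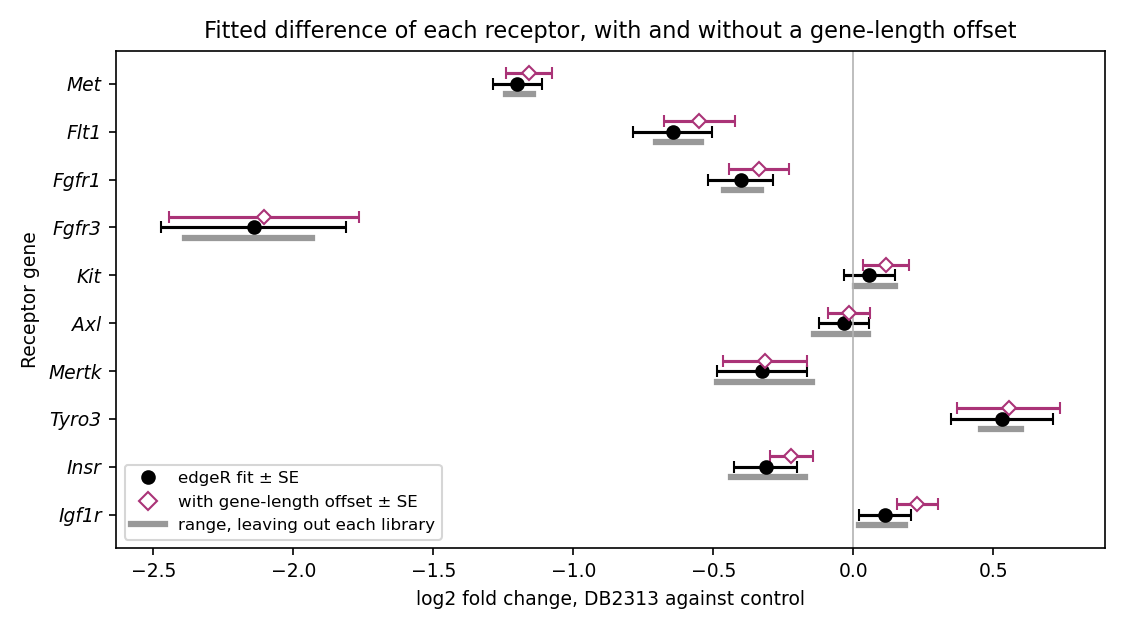
Log2 fold change of the 10 receptors, DB2313 against control. Black points are the edgeR fit and open diamonds the fit with a gene-length offset, both with SE bars, and grey bars span the 6 fits that each left out a library. The offset moves every gene to the right, most for Igf1r (0.11 to 0.23), and Met and Fgfr3 stay apart from the others in all fits.

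DB2313 replicate 1 was the lowest of the treated libraries for 7 of the 10 receptors, namely Axl, Fgfr1, Flt1, Igf1r, Insr, Kit and Mertk. Met and Tyro3 were lowest in replicate 2 and Fgfr3 in replicate 3. Replicate 1 was also the library in which long genes stood lowest, and it had the highest summed levels of neutrophil markers (5841 CPM, against 4434 to 4846 CPM in the other DB2313 libraries) and T cell markers (240 CPM against 161 to 196 CPM). In control the same sums were 4373 to 4924 and 159 to 188 CPM. Of the 8 neutrophil markers, Elane (log2 fold change 0.69, edgeR adjusted p 5.9e-04) and Ly6g (0.56, edgeR adjusted p 0.00473) rose between the groups. The others did not pass, with log2 fold changes of 0.11 for S100a8, 0.16 for S100a9, 0.30 for Mpo, 0.24 for Ltf, -0.29 for Camp and -0.013 for Ngp. The part of neutrophils and T cells in the levels of the receptors was not tested. Fibroblast markers, which matter for Fgfr1, summed to 3.07 to 5.01 CPM in control and 4.32 to 4.61 CPM with DB2313, and Col3a1, Dcn and Lum were at 0.

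Levels were compared between genes as CPM per kilobase of gene length. In control the order was Axl (53.6 ± 2.92, SD, n = 3), Insr (9.12 ± 0.797), Met (9.10 ± 0.580), Mertk (6.49 ± 1.53), Kit (5.85 ± 0.594), Igf1r (3.43 ± 0.144), Fgfr1 (2.09 ± 0.050), Flt1 (1.22 ± 0.126), Tyro3 (0.836 ± 0.0886) and Fgfr3 (0.556 ± 0.0732). Only Insr and Met, and Mertk and Kit, overlapped with their neighbour in this order. With DB2313, Met (3.96 ± 0.213) stood in place 5, after Axl (52.4 ± 7.01), Insr (7.34 ± 1.39), Kit (6.09 ± 0.311) and Mertk (5.18 ± 0.933), and overlapped with Igf1r (3.71 ± 0.428). Tyro3 (1.21 ± 0.0956) then ranked before Flt1 (0.781 ± 0.102), in the reverse of the control order, and the ranges of these 2 genes did not overlap in either group. The 10 genes held 34.8% to 36.1% of the summed level of all 58 receptor tyrosine kinases in control and 36.3% to 37.5% with DB2313. Their own summed level did not rise, at 86.5 to 96.1 CPM per kb in control and 72.5 to 93.0 with DB2313. Csf1r, outside the 10 genes but within the 58, measured 141 ± 3.59 and 115 ± 14.7 CPM per kb.

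**Figure D3:**
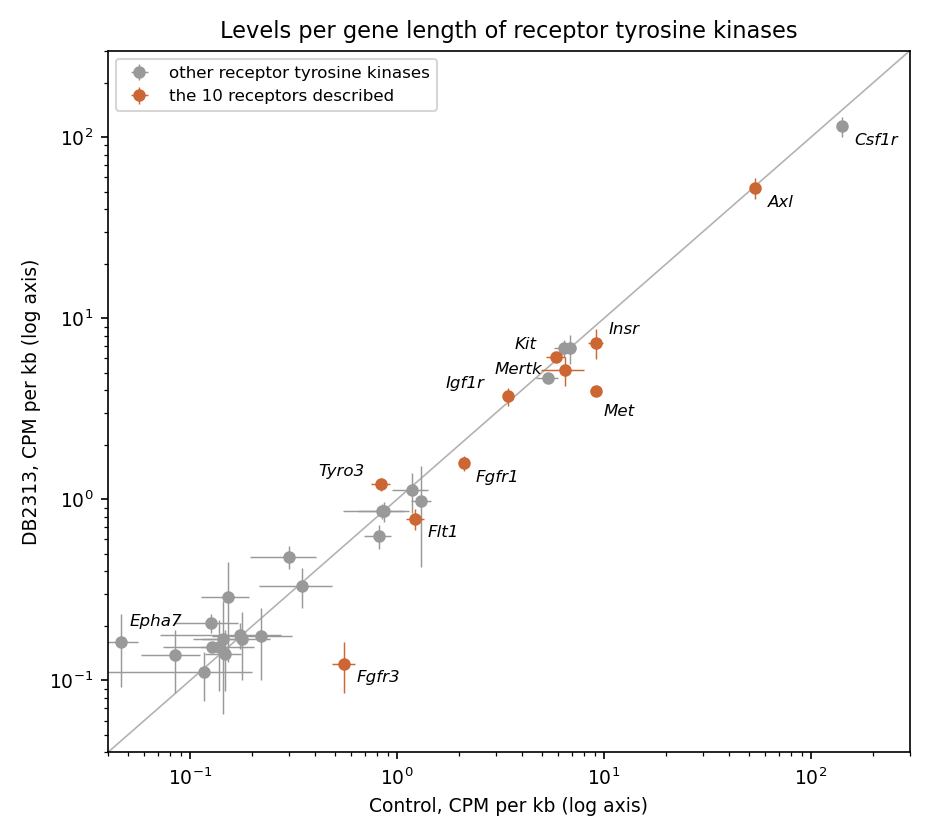
Levels per gene length (CPM per kb, log axes) of the 33 receptor tyrosine kinases that passed the filter on low counts, control against DB2313, as means with SD bars (n = 3 libraries). Orange points are the 10 receptors described, grey points the others, and the line marks equal levels. Csf1r and Axl stand above the rest in both groups, and Fgfr3 and Met lie under the line.

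Beside the 10 genes, the family has 48 other receptor tyrosine kinases, of which 23 passed the filter on low counts and 6 had no read in any library. Of the 23, 1 rose and 1 fell at an adjusted p under 0.05, or 8.70% against 10.6% of all genes tested. Their median log2 fold change was -0.0090. Csf1r, the receptor for macrophage colony-stimulating factor and the most abundant of the family with and without division by length, fell from 688 ± 17.5 to 561 ± 71.6 CPM (SD, n = 3), or by 0.29 ± 0.08 (SE) on the log2 scale (edgeR adjusted p 0.0324). The single libraries were 702, 694 and 668 CPM in control and 504, 538 and 641 CPM with DB2313. Its call was lost with library totals, with the replicate number as a block, without each control library and without DB2313 replicates 1 and 2. The edgeR adjusted p was highest, at 0.179, without DB2313 replicate 2 (-0.26). Hmgxb3 covers 873 bases of the exons of Csf1r on the opposite strand, at up to 518 counts per library. Epha7, an ephrin receptor, rose by a log2 fold change of 1.81 ± 0.48 (edgeR adjusted p 0.0236), but from only 6 to 9 counts in control to 19 to 48 with DB2313. That call was lost without each control library and without DB2313 replicate 2 (1.39, edgeR adjusted p 0.206). The other members with the highest levels per kilobase, Lmtk2, Aatk, Flt3 and Erbb3, had log2 fold changes of -0.0091, 0.089, -0.20 and -0.073, with edgeR adjusted p from 0.283 to 0.976.

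Of 29 ligands of the 10 receptors, 10 were tested. At an adjusted p under 0.05 none rose and 2 fell, and the median log2 fold change was -0.0048. The share called was 20%, against 10.6% of all genes tested (5.94% lower and 4.66% higher). Whether called or not, 5 of the 10 had a positive and 5 a negative log2 fold change. Pros1, a bridging ligand of the TAM receptors, fell from 10.7 ± 1.93 to 5.73 ± 1.40 CPM (SD, n = 3). Its single libraries were 12.8, 10.4 and 8.96 CPM in control and 4.18, 6.11 and 6.90 CPM with DB2313, without overlap, and the log2 fold change was -0.90 ± 0.20 (SE, edgeR adjusted p 0.00948). Without control replicate 1 it was -0.75, with an edgeR adjusted p of 0.0734. Fgf1, a ligand of all fibroblast growth factor receptors, fell from 10.5 ± 0.866 to 6.35 ± 0.701 CPM, at 10.7, 11.2 and 9.52 CPM against 7.15, 6.01 and 5.88 CPM. Its log2 fold change was -0.72 ± 0.16 (edgeR adjusted p 0.00951), and the call was lost without control replicate 2 (-0.67, edgeR adjusted p 0.0606) and without DB2313 replicate 2. The ligands with the highest CPM, not divided by length, were Vegfa, at 123 ± 14.3 and 107 ± 7.75 CPM, and Igf1, at 82.1 ± 7.14 and 89.0 ± 8.91 CPM. Their log2 fold changes of -0.20 and 0.12 did not pass (edgeR adjusted p 0.194 and 0.499). Hgf, the ligand of Met, singled out after its values were seen, measured 45.8 ± 6.08 and 39.2 ± 8.63 CPM, with overlapping groups and an edgeR adjusted p of 0.347. The single libraries of Hgf were 44.8, 52.4 and 40.3 CPM in control and 32.0, 36.8 and 48.7 CPM with DB2313. Its log2 fold change was -0.23 ± 0.14 (SE), and a link to the level of Met was not tested.

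Of 26 co-receptors and ligand-handling genes, 21 were tested, 1 rose and 3 fell, with a median log2 fold change of 0.053. The share called was 19.0%, against 10.6% of all genes tested. Nrp2, a neuropilin that binds VEGF together with its receptors, fell from 381 ± 22.6 to 283 ± 19.6 CPM (SD, n = 3), a log2 fold change of -0.43 ± 0.07 (edgeR adjusted p 0.00143). Gpc1, a glypican, and Sdc1, a syndecan, carry the heparan sulfate that presents fibroblast growth factors. Gpc1 fell from 327 ± 24.4 to 246 ± 11.4 CPM (-0.41 ± 0.07, edgeR adjusted p 0.00197) and Sdc1 from 81.7 ± 1.53 to 64.9 ± 2.66 CPM (-0.33 ± 0.08, edgeR adjusted p 0.0103). In contrast, the syndecan Sdc4 rose from 43.6 ± 1.92 to 53.2 ± 3.32 CPM (0.29 ± 0.09, edgeR adjusted p 0.0446). The calls of Nrp2 and Gpc1 held in all 15 alternatives. Ankmy1 (up to 10 counts) covers 977 exon bases of Gpc1 on the opposite strand. That of Sdc1 was lost without control replicates 1 and 3 (-0.32, edgeR adjusted p 0.0583, without replicate 3), and that of Sdc4 in every fit that left out a library except without DB2313 replicate 3 (0.25, edgeR adjusted p 0.178, without control replicate 1). Cd44, a partner of Met, did not pass (0.14 ± 0.07, edgeR adjusted p 0.225).

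Adaptors and effectors were almost all expressed, with 46 of 47 tested, of which 1 rose and 7 fell. That was 17.4% called, against 10.6% of all genes tested (5.94% lower and 4.66% higher). The median log2 fold change was -0.076. The gene that rose was Shc1, an adaptor that links receptors to Grb2, from 120 ± 5.45 to 166 ± 16.1 CPM (0.47 ± 0.08, edgeR adjusted p 0.00167). Pik3cb and Pik3cd encode catalytic subunits of PI3K. Pik3cb fell from 56.7 ± 4.43 to 37.3 ± 3.61 CPM (-0.60 ± 0.10, edgeR adjusted p 8.2e-04) and Pik3cd from 337 ± 10.6 to 286 ± 7.04 CPM (-0.24 ± 0.06, edgeR adjusted p 0.0288). Dok2, an adaptor that dampens RAS, fell by 0.37 ± 0.07 on the log2 scale and the kinase Src by 0.32 ± 0.08 (edgeR adjusted p 0.00461 and 0.0205). The calls of Shc1, Pik3cb and Dok2 held in all 15 alternatives, whereas those of Src and Pik3cd were lost without each control library and without DB2313 replicate 2, with an edgeR adjusted p of up to 0.134 (-0.28) and 0.154 (-0.21). Mapk3 and Akt1, kinases at the end of both routes and the genes with the highest CPM of the list before division by length, had log2 fold changes of -0.13 and -0.054 (edgeR adjusted p 0.388 and 0.670).

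All 26 brakes on receptor signalling were tested, and 3 rose and 3 fell, with a median log2 fold change of -0.11. Called were thus 23.1%, against 10.6% of all genes tested. Sla and Sla2 encode adaptors that help the ubiquitin ligase Cbl remove receptors. Sla rose from 88.5 ± 1.45 to 125 ± 7.55 CPM (0.49 ± 0.07, edgeR adjusted p 5.5e-04) and Sla2 from 6.93 ± 1.02 to 10.6 ± 1.78 CPM (0.61 ± 0.18, edgeR adjusted p 0.0393). Ptprf, a receptor-type phosphatase, fell from 31.4 ± 5.07 to 18.2 ± 3.16 CPM, at 26.8, 36.8 and 30.8 CPM against 15.5, 17.5 and 21.7 CPM (-0.79 ± 0.14, edgeR adjusted p 0.00185). Phosphatases thus moved both ways, as Ptpn12 rose (0.35 ± 0.08, edgeR adjusted p 0.00815) and Ptpn1, which acts on the insulin receptor, fell (-0.27 ± 0.07, edgeR adjusted p 0.0182). The lipid phosphatase gene Inppl1 fell too (-0.41 ± 0.08, edgeR adjusted p 0.00396). The calls of Sla, Ptprf and Inppl1 held in all 15 alternatives. That of Ptpn12 was lost without control replicate 3 and DB2313 replicate 2 (edgeR adjusted p up to 0.0635, 0.31), that of Ptpn1 without each control library and DB2313 replicate 2 (up to 0.104, -0.27), and that of Sla2 without control replicates 1 and 2 and DB2313 replicates 1 and 2 (up to 0.163, 0.53). On the opposite strand, Rab5if (up to 1348 counts per library, more than Sla2 itself) covers 731 exon bases of Sla2, and Gm10602 (up to 15 counts) covers 1204 of Inppl1. Ptpn6, a phosphatase of blood cells, did not pass (0.11 ± 0.07, edgeR adjusted p 0.328).

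Of 16 genes that ERK signalling is known to raise, 14 were tested, 1 rose and 2 fell, with a median log2 fold change of 0.044. The share called was 21.4%, against 10.6% of all genes tested. The gene that rose was Ccnd1, cyclin D1, from 25.8 ± 1.88 to 42.1 ± 4.34 CPM (SD, n = 3; 0.71 ± 0.10, edgeR adjusted p 4.4e-04), in all 15 alternatives. LTO1 (up to 444 counts per library) shares 1100 exon bases with it on the opposite strand. The immediate early genes Egr2 and Egr1 fell, from 27.1 ± 3.67 to 17.1 ± 1.14 CPM (-0.67 ± 0.12, edgeR adjusted p 0.00204) and from 23.2 ± 6.80 to 15.8 ± 1.40 CPM (-0.55 ± 0.17, edgeR adjusted p 0.0453). Egr2 held in all 15 alternatives, whereas Egr1 was lost without control replicate 1 (-0.28, edgeR adjusted p 0.267), control replicate 2 and DB2313 replicate 2, and also with library totals (-0.53, edgeR adjusted p 0.0667) and in limma-voom (-0.51, limma adjusted p 0.0695). Dusp6 and Ier2, with the highest CPM of the list before division by length, had log2 fold changes of -0.23 and -0.24 and did not pass (edgeR adjusted p 0.0934 and 0.218).

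**Figure D4:**
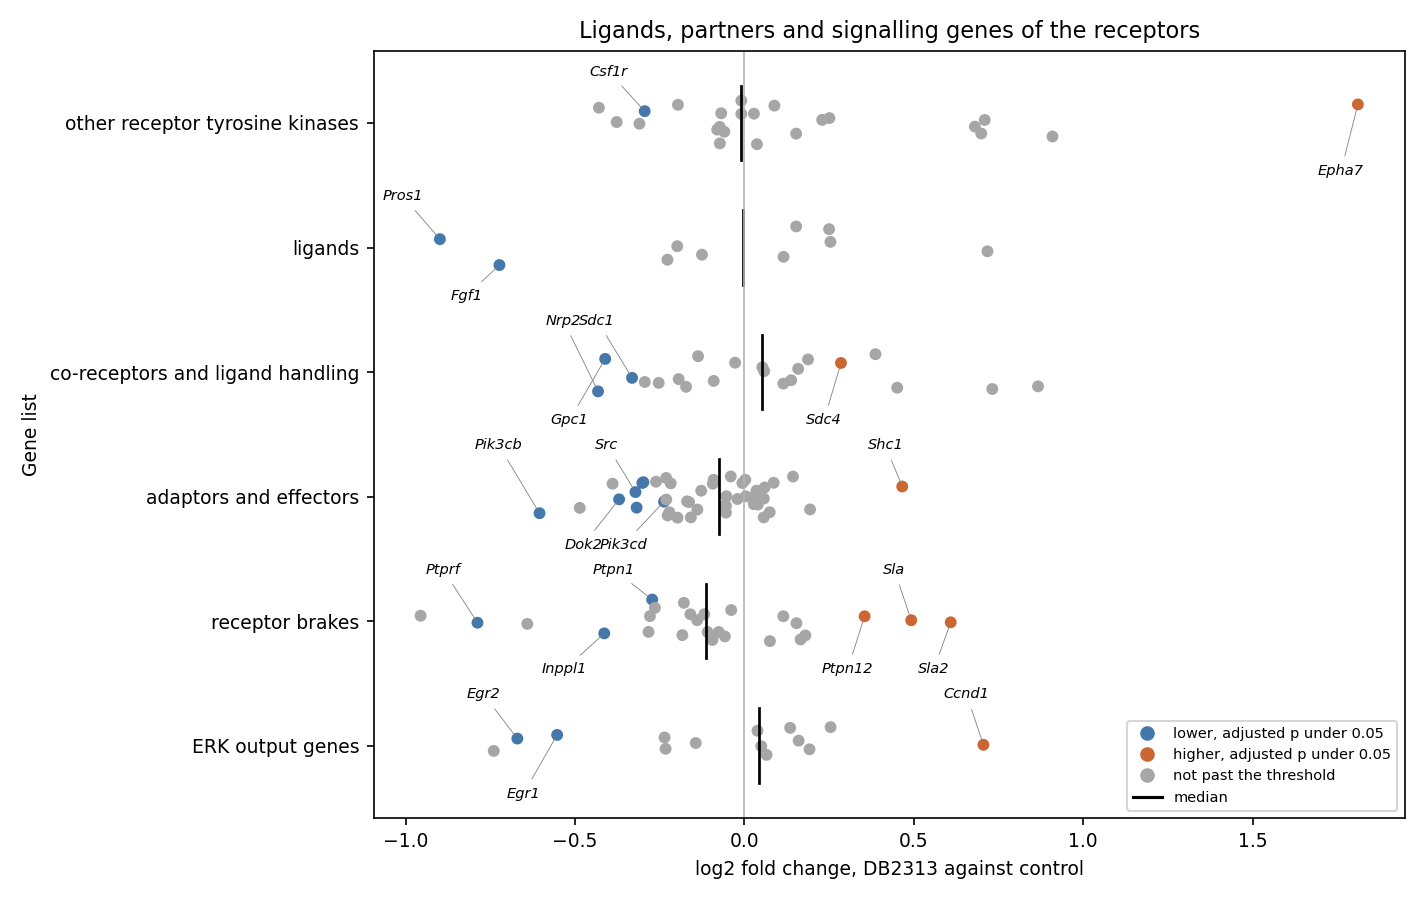
Log2 fold change (DB2313 against control) of each tested gene in the 6 lists around the receptors, with blue points for genes that fell and orange points for genes that rose at an adjusted p under 0.05, grey points for the rest and a black line at the median. Medians lie between -0.11 and 0.053. Genes past the threshold move both ways in every list except the ligands, where Pros1 and Fgf1 fell. Of the 10 tested ligands, 5 have a positive and 5 a negative log2 fold change.

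The genes with the pattern most like that of Met, Flt1 and Fgfr3 were sought by the correlation of log2 CPM over the 6 libraries, among 11147 protein-coding genes outside the list. Since all 3 receptors separate the groups, any gene that does so correlates with them, and 770 genes had a Pearson r over 0.9 with Met, 606 with Flt1 and 528 with Fgfr3. The closest to Met were Ptpro (r = 0.9995), a receptor-type phosphatase, Ggta1 (0.9995) and Srgap2 (0.998). Ptpro averaged 34.2 ± 1.17 CPM (SD, n = 3) without the compound and 20.6 ± 0.858 CPM with it. Closest to Flt1 were Man1a (0.995), Tor1aip1 (0.994, with 699 exon bases under Tor1aip2 on the opposite strand) and the integrin gene Itgb1 (0.994), and closest to Fgfr3 were Aebp2 (0.9995), the survival gene Mcl1 (0.994) and Cyth1 (0.992). These are descriptions over 6 libraries that share the difference between the groups.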

How the data were processed

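RNA-seq was performed on 6 libraries of mouse dendritic cells, 3 control and 3 DB2313. Per gene, the authors deposited raw read counts for each library, neither normalised nor pooled, and a length in bp. Submitters' processing notes name CASAVA 1.8, HISAT2 2.0.5 and featureCounts 1.5.0-p3, whereas the methods of the study name LifeScope for RNA-seq of macrophages and CD8 T cells. Build, strandedness and treatment of multiply mapped reads are not given in the sources used here. All 10 receptors had the GENCODE M21 (GRCm38) start and end, as did 98.3% of 54409 shared identifiers.

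Groups were taken from the treatment in the labels. Differences were tested with edgeR 4.0.16 in R 4.3.3 (quasi-likelihood test, TMM scaling, filterByExpr, no covariate besides the group), with p-values adjusted by Benjamini-Hochberg over 14174 genes. The SE was the log2 fold change over the root of F. The study named DESeq2, which was an alternative (1.42.0), beside limma-voom (limma 3.58.1), other scalings and filters, a gene-length offset (lowess, span 0.3), the replicate number as a block and the omission of each library, 15 in all. CPM used TMM-scaled totals, and log2 CPM for correlations a prior count of 2. Copies of the receptor transcripts were sought with blastn 2.17.0 (95% identity over at least 100 bp). No other protein-coding gene shared over 102 bp with a receptor. No sequence of the receptor proteins was used here.

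The members and lists were chosen with earlier results of these data known. Named in the text are the 10 receptors, up to 4 called genes in each direction and the 2 genes of each list with the highest CPM, all called other receptors and the 5 with the highest level per kilobase, and the 3 genes most like Met, Flt1 and Fgfr3, plus marker genes. Errors cover the spread between libraries. No batch was given in the labels. The value of a macrophage marker is not reported here.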

Additional observations from a re-analysis of the deposited data

How the results depend on the processing

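The log2 fold changes of the 10 receptors kept their sign in all 15 alternatives, except that of Axl, which did so in 13, and each moved by less than the spread between replicates. Of the receptors, 4 met the call rule with all libraries and 2 to 6 when a library was left out, with 2 without control replicate 2 and 6 without DB2313 replicate 3. Over all genes the number called was 1503, and 739 (without DB2313 replicate 2) to 2408 (without DB2313 replicate 3). Called genes over the same fits numbered 0 to 3 among the other receptors, 1 to 5 among ligands, 2 to 8 among co-receptors, 3 to 11 among adaptors and 3 to 11 among brakes. The highest number came in each case without DB2313 replicate 3. A smaller group makes a call harder to reach. Yet over all genes 1711 were called without DB2313 replicate 1 and 2408 without replicate 3, more than with all libraries. Why more were called in these fits was not tested. Library totals left 1 other receptor and 5 adaptors called, and the gene-length offset called 5 genes known to be raised by ERK. Of the 10 receptors, 6 were among the 10 most abundant receptor tyrosine kinases in control, with and without division by length.

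Replicate numbers were not taken as pairs, since deviations from the group means correlated at 0.0035, -0.024 and -0.12 between same-numbered libraries. With the replicate block, Fgfr1 missed the threshold, with and without the length offset, and 3 adaptors and 1 other receptor were called, and 5 adaptors with the block and the length offset together. Among the list genes named above, Csf1r, Src and Ptpn1 lost their calls with the block alone. Sdc4, Pik3cd and Sla2 lost theirs with the block, with and without the length offset. For genes as low as Fgfr3 with DB2313 (10 to 23 counts) and Epha7 in control, counting noise limits the precision of a fold change.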
